A study of Homo sapiens with 6 samples.

Results

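Squamous lineage transcription factors were examined in chromatin accessibility data (ATAC-seq, in which the Tn5 transposase cuts and tags open DNA) from 3 human esophageal cell lines. The 10 genes, TP63, SOX2, KLF4, KLF5, GRHL2, GRHL3, TFAP2A, TFAP2C, ZNF750 and OVOL1, were chosen by name among the 20136 protein-coding genes of the annotation. A peak was assigned to a gene when it overlapped the gene body or the 50 kb to either side, and 39 of the 29879 peaks called in the 6 libraries did so. Each line had 2 libraries from biological replicates, named here by the number in their labels. HET-1A is a non-cancerous esophageal epithelial line that carries the SV40 large T antigen, and it was grown in BEBM medium with its additives. KYSE-30 and KYSE-150 are lines from esophageal squamous cell carcinoma (ESCC), grown in RPMI/F12 with serum. No line received a treatment. Each line stands for the cells of a single donor, and HET-1A differed from the others in medium as well as in disease state, so line, donor and medium cannot be told apart.

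The peak lists differed greatly in length, which governs every count below. HET-1A library 2 held 15979 peaks and HET-1A library 1 only 168. KYSE-30 library 6 held 11671 and KYSE-30 library 4 held 1255, while KYSE-150 libraries 7 and 8 held 547 and 259. The lists give no read totals. Depth was therefore taken from the genome background, the number of tags MACS2 expected per 200 bp window, which ran from 1.49 (KYSE-30 library 6) to 3.34 (HET-1A library 2). At that background the fewest tags that were called ranged from 8 (KYSE-30 library 6) to 13 (both KYSE-150 libraries). With 2 libraries per line an exact permutation test between lines cannot give a two-sided p below 0.333, so no such test was made and presence or absence of a peak is given per library. A missing peak means only that the list holds no call there.

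Stratified squamous epithelium, such as that of the esophagus, is renewed from basal cells that divide and then differentiate as they move to the surface. The p53 family member p63 (TP63) establishes the basal state, and SOX2, an HMG-box factor of foregut progenitors, acts beside it. KLF5 is known from dividing basal cells and KLF4 from their more differentiated descendants. The grainyhead-like factors GRHL2 and GRHL3 maintain epithelial junctions and barrier, the AP-2 factors TFAP2A and TFAP2C act on keratin and other epidermal genes, and ZNF750 and OVOL1 are zinc finger factors that promote differentiation. An open promoter allows transcription to start, and distal open regions can act as enhancers. ATAC-seq measures neither transcription nor enhancer activity.

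The regions on which the results turn are shown here as hg19 reference sequence, 5′ to 3′ on the forward strand. They are the 5 regions called in more than 1 library, and 4 examples of regions called in a single library, for TFAP2A, TFAP2C, GRHL3 and ZNF750. Those of TFAP2A, TFAP2C and GRHL3 are the promoter peaks with the highest fold enrichment of each gene. That of ZNF750 is its only KYSE-30 peak. The promoter regions of GRHL2 and KLF4, also called in a single library, are not printed. Each spans 200 bp around a summit, except the region beyond the 3′ end of TP63, where 300 bp hold the summits of both KYSE-30 libraries. Capitals mark matches, on either strand, to the motifs searched: TGANTCA of AP-1, GCCNNNGGC of AP-2, AACCNGTT of grainyhead-like factors, CCNCNCCC of KLF factors, AACAATNG of SOX factors, CCGTTA of OVOL factors, and the core motif of the p53 family.
TP63 intron region shared by HET-1A and KYSE-30, chr3:189551915-189552114: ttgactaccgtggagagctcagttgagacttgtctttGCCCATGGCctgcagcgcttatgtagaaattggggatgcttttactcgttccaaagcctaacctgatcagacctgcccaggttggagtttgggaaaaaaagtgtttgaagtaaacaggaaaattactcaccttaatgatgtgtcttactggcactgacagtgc
TP63 region beyond the 3′ end, both KYSE-30 libraries, chr3:189655491-189655790: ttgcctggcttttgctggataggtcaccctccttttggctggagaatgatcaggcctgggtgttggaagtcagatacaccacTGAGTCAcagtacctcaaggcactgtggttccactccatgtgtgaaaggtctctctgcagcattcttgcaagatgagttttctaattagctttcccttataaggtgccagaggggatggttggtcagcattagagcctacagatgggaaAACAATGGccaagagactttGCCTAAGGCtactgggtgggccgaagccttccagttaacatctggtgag
KLF5 promoter, called in all 3 lines, chr13:73632934-73633133: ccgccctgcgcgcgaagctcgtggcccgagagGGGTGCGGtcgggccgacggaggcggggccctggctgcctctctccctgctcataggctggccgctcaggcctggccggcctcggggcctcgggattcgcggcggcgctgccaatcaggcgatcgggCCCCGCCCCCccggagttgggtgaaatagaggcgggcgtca
TFAP2A upstream region shared by HET-1A and KYSE-30, chr6:10441582-10441781: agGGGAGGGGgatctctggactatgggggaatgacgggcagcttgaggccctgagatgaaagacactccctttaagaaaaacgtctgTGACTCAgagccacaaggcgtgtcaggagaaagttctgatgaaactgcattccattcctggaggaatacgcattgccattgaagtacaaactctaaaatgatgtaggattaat
TFAP2C upstream region shared by HET-1A and KYSE-30, chr20:55181680-55181879: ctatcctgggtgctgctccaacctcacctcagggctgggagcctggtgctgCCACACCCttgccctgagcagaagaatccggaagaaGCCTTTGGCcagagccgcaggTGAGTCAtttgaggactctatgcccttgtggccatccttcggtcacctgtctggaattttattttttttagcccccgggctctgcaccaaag
TFAP2A internal promoter, KYSE-30, chr6:10404001-10404200: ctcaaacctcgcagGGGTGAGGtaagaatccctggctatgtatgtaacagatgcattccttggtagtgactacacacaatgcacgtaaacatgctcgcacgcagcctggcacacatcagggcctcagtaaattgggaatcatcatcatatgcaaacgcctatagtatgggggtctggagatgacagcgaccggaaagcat
TFAP2C promoter, HET-1A, chr20:55203480-55203679: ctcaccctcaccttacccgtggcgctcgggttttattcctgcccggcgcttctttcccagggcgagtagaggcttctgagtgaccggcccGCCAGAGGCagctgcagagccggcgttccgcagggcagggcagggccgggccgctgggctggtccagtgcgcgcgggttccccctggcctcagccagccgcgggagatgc
GRHL3 promoter, HET-1A, chr1:24643647-24643846: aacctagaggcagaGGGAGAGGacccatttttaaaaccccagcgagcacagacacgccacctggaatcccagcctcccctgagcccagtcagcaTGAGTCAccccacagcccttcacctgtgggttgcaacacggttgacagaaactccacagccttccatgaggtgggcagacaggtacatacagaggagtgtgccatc
ZNF750 upstream region, KYSE-30, chr17:80832411-80832610: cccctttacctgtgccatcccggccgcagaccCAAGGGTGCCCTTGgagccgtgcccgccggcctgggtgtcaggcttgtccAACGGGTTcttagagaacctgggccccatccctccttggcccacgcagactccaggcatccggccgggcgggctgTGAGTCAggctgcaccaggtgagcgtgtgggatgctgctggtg

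The region beyond TP63 held AP-1, SOX and AP-2 matches, the AP-1 match 65 bp before the middle of the printed window and the SOX match 85 bp after it. The TFAP2C upstream region held KLF, AP-2 and AP-1 matches within 45 bp of the KYSE-30 summit. The ZNF750 region held p53 family, grainyhead-like and AP-1 matches within 61 bp of the summit. The printed KLF5 window, around the KYSE-30 library 6 summit, held KLF matches, of which the pair at its 3′ side overlap each other. The windows around the HET-1A library 2 and KYSE-150 library 7 summits of that promoter each held an AP-2 match as well. A match is a description of the letters and does not show that the factor was bound.

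Peaks within 3 kb of an annotated transcription start site of a gene were counted as promoter peaks. Those within 3 kb of a start of another gene were set apart, and all others were distal. In HET-1A library 2 the promoters of 4 of the 10 genes (KLF4, KLF5, GRHL3 and TFAP2C) carried a peak, 40% (Wilson 95% interval 16.8 to 68.7%), and 35.4% of all protein-coding genes did. In KYSE-30 library 6 the promoters of 3 genes (KLF5, GRHL2 and TFAP2A) carried a peak, 30% (10.8 to 60.3%), and 28.7% of all protein-coding genes did. Both shares lay near those of all genes. In KYSE-150 library 7 KLF5 was the only gene of the 10 with a promoter peak, and 1.79% of all protein-coding genes had one. No promoter peak was called at the 10 genes in HET-1A library 1, KYSE-30 library 4 or KYSE-150 library 8, where 0.0944%, 3.88% and 0.363% of all protein-coding genes had one. The upper Wilson limit of such a count of 0 is 27.8%, and these intervals cover counting error only.

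Distal peaks lay at 5 of the 10 genes in HET-1A library 2 (TP63, KLF4, GRHL3, TFAP2A and ZNF750), 50% (Wilson 95% interval 23.7 to 76.3%), with 32.7% of all protein-coding genes. In KYSE-30 library 6 they lay at 3 genes (TP63, KLF5 and TFAP2C), 30%, with 21.9% of all protein-coding genes. In KYSE-30 library 4 they lay at TP63 and ZNF750, 20% (5.67 to 51%), with 2.47% of all protein-coding genes. These counts depend on the window: with 20 kb to either side in place of 50 kb the KYSE-30 library 4 count was 0 and the HET-1A library 2 count 3. HET-1A library 1 and KYSE-150 libraries 7 and 8 had no distal peak at the 10 genes, where 0.675%, 1.32% and 0.79% of all protein-coding genes had one. Windows differ in length, from 103 kb for SOX2 to 366 kb for TP63, so the density per Mb was also taken. Distal peaks numbered 5.9 per Mb over the 10 windows in HET-1A library 2 (3.16 per Mb over the windows of all protein-coding genes). The values were 1.18 (0.162) for KYSE-30 library 4 and 4.72 (1.82) for KYSE-30 library 6. With peaks of every class counted, the densities of these libraries lay nearer to those of all genes. The density was then 12.4 per Mb (11.2) for HET-1A library 2. For KYSE-30 library 6 it was 8.25 (6.82), and for library 4 of that line 1.18 (0.833). Window lengths were not reduced for DNA within 3 kb of a start, and the part of this in the distal densities was not tested. TP63 held 6 of the 8 distal peaks of KYSE-30 library 6.

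**Figure D1:**
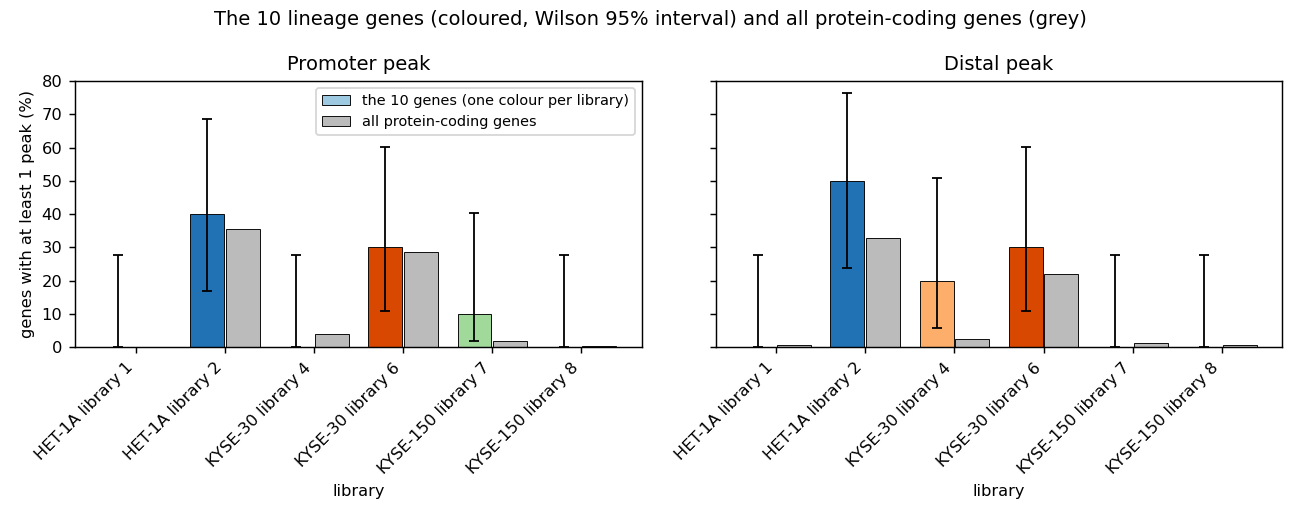
Share of genes with at least 1 promoter peak (left) or distal peak (right), in percent, per library, for the 10 lineage genes (coloured bars, error bars are Wilson 95% intervals) and all protein-coding genes (grey bars). The coloured promoter bars of HET-1A library 2 and KYSE-30 library 6, 40% and 30%, stand close to their grey bars, 35.4% and 28.7%.

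The 39 peaks merged into 33 regions. Of these, 28 were called in 1 library, 4 in 2 libraries and 1, the KLF5 promoter, in 3. There were 17 regions with a HET-1A peak and no KYSE-30 peak, 11 with a KYSE-30 peak and no HET-1A peak, and 4 with both. All 17 came from HET-1A library 2, and 9 of the 11 came from KYSE-30 library 6 alone. Of the 21 HET-1A library 2 peaks at these genes 19% were shared with KYSE-30 library 6, and of the 14 KYSE-30 library 6 peaks 28.6% were shared. Over all peaks of these libraries the shares were 28.6% and 39.1%.

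The limit that depth set was computed for pairs of libraries. When the tags and local background of a peak were scaled by the ratio of genome backgrounds, all 14 peaks of KYSE-30 library 6 passed the p-value limit of KYSE-30 library 4, but only the region beyond TP63 was called there. Of the 21 peaks of HET-1A library 2, 8 passed the limit of HET-1A library 1 in this way and 0 were called. All 14 peaks of KYSE-30 library 6 also passed the limit of HET-1A library 2, whereas 10 of the 21 HET-1A library 2 peaks passed that of KYSE-30 library 6. A region called only in HET-1A can therefore lie under what KYSE-30 library 6 could show. KYSE-30 library 6 had the lowest genome background (1.49) and HET-1A library 2 the highest (3.34). Scaling thus always raised the tags of the first and always lowered those of the second. The contrast between their passes was largely set by this, and the 14 passes say little about absent calls.

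**Figure D2:**
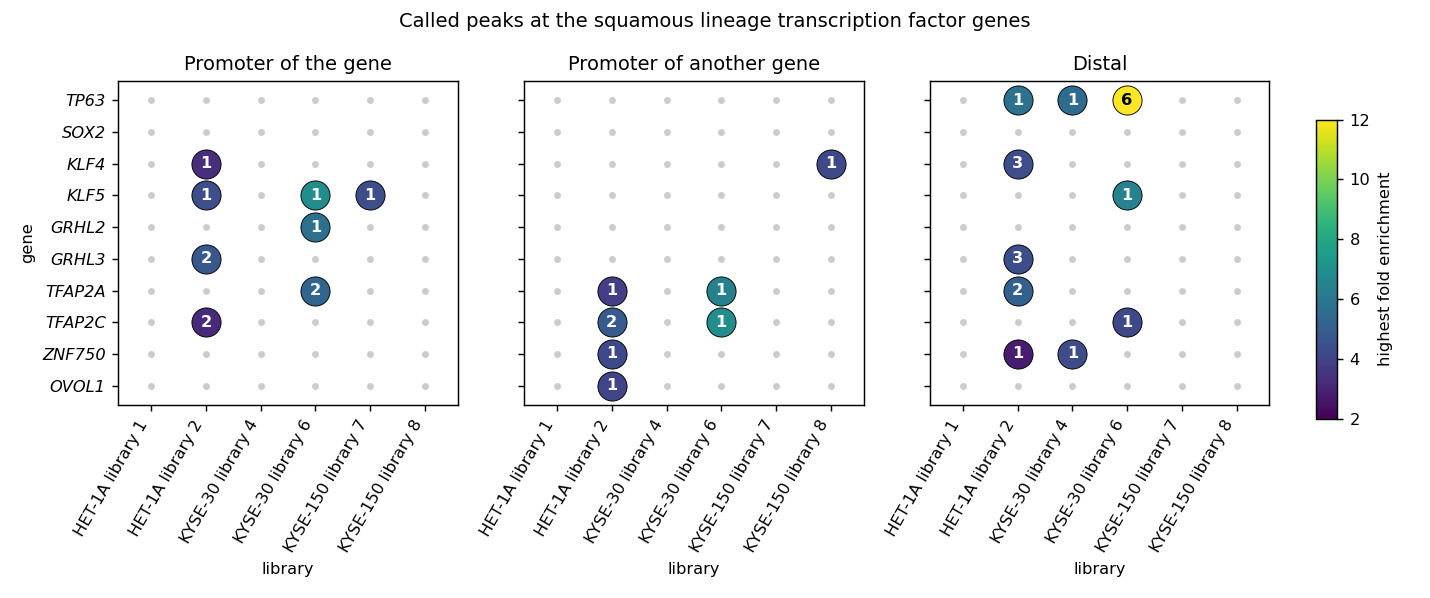
Number of called peaks (digit in each circle) per gene (rows) and library (columns), for promoter peaks of the gene, peaks at a promoter of another gene, and distal peaks. Colour gives the highest fold enrichment of those peaks, and grey dots mark combinations with no peak. KLF5 is the only gene with a promoter peak in 3 libraries, SOX2 has no peak, and TP63 has 6 distal peaks in KYSE-30 library 6 and none at a promoter.

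TP63 (ENSG00000073282, chr3:189349178-189615065, forward strand) carried 8 peaks, and none lay within 3 kb of any of its 8 annotated starts. Of all protein-coding genes, 53.6% likewise had no promoter peak in any library. The 8 peaks were the most of the 10 genes, but the TP63 window was also the longest (366 kb). TFAP2C held 6 peaks in 110 kb, so the count does not make TP63 the densest. The gene has a first group of starts, which gives the full-length protein, and an internal group at chr3:189507448-189507590, which gives the shorter ΔNp63 that prevails in basal squamous cells. The nearest peak to the internal starts lay 44.2 kb downstream in HET-1A library 2. It lay 44.3 kb downstream in KYSE-30 library 6 and 148 kb downstream in library 4 of that line. The list of HET-1A library 1 and those of both KYSE-150 libraries held no peak in the window.

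The nearest peaks to the internal starts were a single intron region shared by HET-1A and KYSE-30. In HET-1A library 2 it spanned chr3:189551840-189552109 with a fold enrichment of 5.76 (q = 2.18e-10, 24 tags at the summit, exact Poisson 95% interval 15.4 to 35.7), and it ranked in the top 11.4% of that list. In KYSE-30 library 6 it spanned chr3:189551893-189552110 with a fold enrichment of 5.25 (q = 1.02e-06, 16 tags, 9.15 to 26). The summits lay 66 bp apart. Fold enrichment is the number of tags plus 1 over the local background plus 1, so it falls where the background is high. It was 5.25 in KYSE-30 although the tags per unit of genome background were 10.8 there and 7.18 in HET-1A. Such tag values ran higher in KYSE-30 library 6 at the 10 genes generally. They spanned 6.72 to 51.8 there and 4.79 to 10.8 in HET-1A library 2, so they do not rank a region between lines.

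The other TP63 regions were called in KYSE-30 only. The strongest lay 40238 bp beyond the 3′ end of the gene, at chr3:189655303-189655896 in KYSE-30 library 6, with a fold enrichment of 12 (q = 3.22e-55, 77 tags, 60.8 to 96.2) and rank 39 of 11671 peaks. KYSE-30 library 4 called the same region at chr3:189655425-189655905 with a fold enrichment of 5.45 (q = 3.26e-12, 33 tags, 22.7 to 46.3) and rank 109 of 1255. The summits lay 75 bp apart. This was the only region at the 10 genes that both KYSE-30 libraries held, and their sharing over the whole lists was not counted. The region lay 147713 bp from the nearest TP63 start in library 6, and the lists do not tell which gene it serves. In library 6 the interval of its tags lay above those of the other 13 peaks at these genes, which all overlapped each other. The remaining TP63 regions of library 6 had fold enrichments of 6.01 (chr3:189559378-189559943, in an intron), 6.56 (chr3:189627439-189627726), 4.9 (chr3:189632597-189632868) and 5.51 (chr3:189662344-189662625).

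SOX2 (ENSG00000181449, chr3:181429713-181432224, forward strand, a gene without introns) had no peak within its window in any library. The nearest peaks of HET-1A library 2 and KYSE-30 library 6 lay 501 kb downstream, and that of KYSE-30 library 4 lay 722 kb upstream. The nearest peaks of the other libraries lay at least 9728 kb away.

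**Figure D3:**
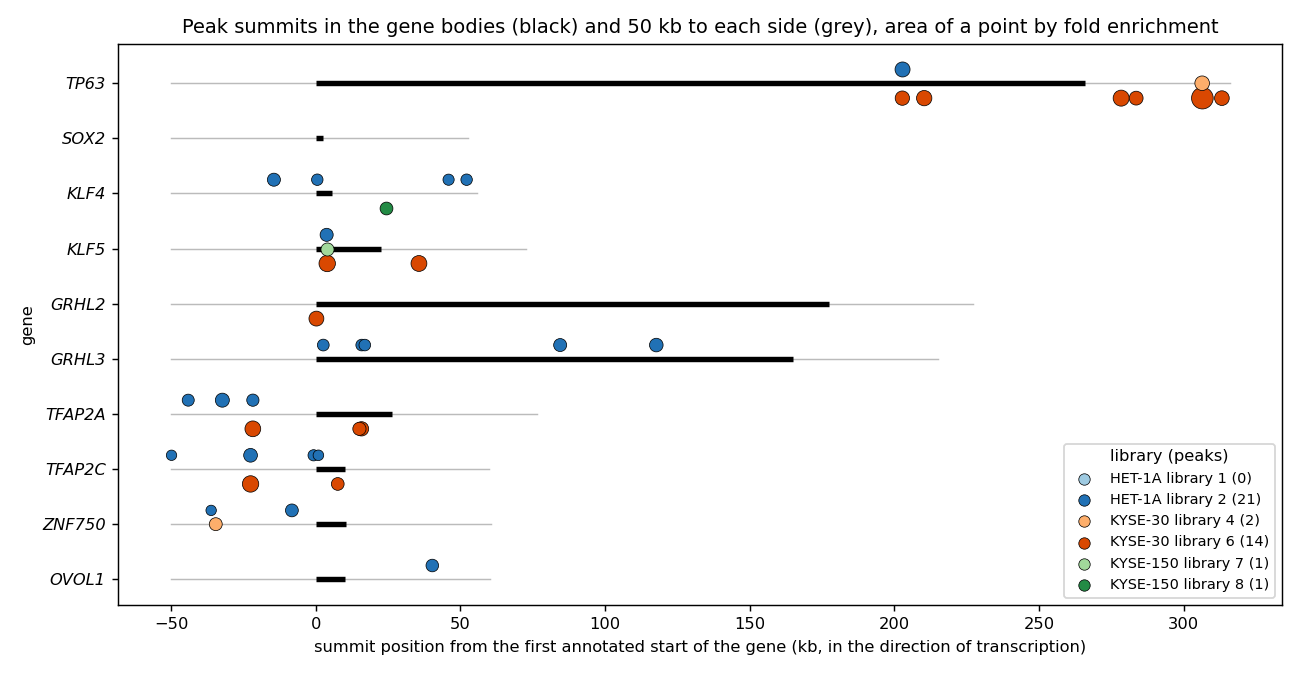
Position of each peak summit relative to the first annotated start of the gene, in kb in the direction of transcription, for the 10 genes (rows). Black bars are gene bodies, grey lines the 50 kb to each side, colours the libraries, and the area of a point is proportional to fold enrichment. At TP63 the points lie in the last part of the gene and beyond its end, and the largest point, fold enrichment 12, coincides with the point of KYSE-30 library 4.

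KLF5 (ENSG00000102554, chr13:73629114-73651679, forward strand) was the only gene of the 10 with a promoter peak in every line. In HET-1A library 2 the peak spanned chr13:73632696-73633194 with a fold enrichment of 4.37 (q = 6.58e-06, 18 tags, 10.7 to 28.4). In KYSE-30 library 6 it spanned chr13:73632769-73633232 with 6.89 (q = 2.68e-13, 26 tags, 17 to 38.1). In KYSE-150 library 7 it spanned chr13:73632739-73633080 with 4.36 (q = 0.000103, 18 tags, 10.7 to 28.4). HET-1A library 1, KYSE-30 library 4 and KYSE-150 library 8 held no peak there. The peaks covered or ended 63 bp before the start at 73633143, and their summits spanned 193 bp. Per unit of genome background the tags were 5.38, 17.5 and 6.43 in these libraries, highest in KYSE-30, where the local background was 1.96 times the genome background. Since such values ran higher in KYSE-30 library 6 at the 10 genes generally, this order is not particular to KLF5. A promoter peak in exactly these 3 libraries was found at 174 protein-coding genes (0.864%). KLF5 also had a distal peak 12982 bp beyond its 3′ end in KYSE-30 library 6 (chr13:73664661-73664862, fold enrichment 6.43).

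KLF4 (ENSG00000136826, chr9:110247133-110252763, reverse strand) had a promoter peak in HET-1A library 2 only, at chr9:110252074-110252371, 24 bp from a start, with a fold enrichment of 3.36 (q = 0.000354, 19 tags, 11.4 to 29.7). A start of ENSG00000289987 also lies within 3 kb. This was a weak call, since 80.1% of the list ranked as high or higher. The same library held distal peaks at chr9:110267172-110267372, 14409 bp upstream (fold enrichment 4.35), and at chr9:110200586-110200840 and chr9:110206768-110206967 beyond the 3′ end (3.35 and 3.2). The peak of KYSE-150 library 8 (chr9:110228523-110228793, fold enrichment 4.2) lay at a start of the non-coding gene LINC01509. Neither KYSE-30 list held a peak within 205 kb of a KLF4 start.

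The promoters of GRHL2 and GRHL3 were called in different lines, but neither pattern was rare. A promoter peak in KYSE-30 library 6 alone, as at GRHL2 and TFAP2A, was found at 1946 protein-coding genes (9.66%). One in HET-1A library 2 alone, as at GRHL3, KLF4 and TFAP2C, was found at 3277 (16.3%). GRHL2 (ENSG00000083307, chr8:102504667-102681954, forward strand) had its only peak in KYSE-30 library 6, over its first starts at chr8:102504549-102504946, with a fold enrichment of 5.67 (q = 4.22e-09, 21 tags, 13 to 32.1). The genes ENSG00000254024 and ENSG00000289048 also start within 3 kb of it, and the lists do not tell which promoter it marks. In HET-1A library 2 the nearest peak lay 54.6 kb upstream of those starts. All 5 peaks of GRHL3 (ENSG00000158055, chr1:24526048-24690972, forward strand) were in HET-1A library 2. The highest, chr1:24643640-24643839, lay 1415 bp before its main group of starts with a fold enrichment of 4.72 (q = 5.25e-08, 23 tags, 14.6 to 34.5). Of the other GRHL3 peaks, that at chr1:24528539-24528741 lay near a far upstream start and a start of LINC02800 (3.54), and those at chr1:24541764-24542143 (3.47), chr1:24542885-24543094 (3.45) and chr1:24610382-24610645 (4.33) lay in introns. In KYSE-30 library 6 the nearest peak lay 219 kb from a GRHL3 start.

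TFAP2A (ENSG00000137203, chr6:10393419-10419892, reverse strand) had promoter peaks in KYSE-30 library 6 only, and none at its first starts. They lay around an internal start at 10404827, at chr6:10403973-10404172 (fold enrichment 5.21, q = 1.15e-06, 16 tags) and chr6:10404761-10404960 (4.46, q = 6.54e-05, 14 tags), where the antisense gene TFAP2A-AS2 also starts. ATAC-seq does not tell the strands apart, so these peaks belong to either gene. A region 21.7 kb upstream, at a start of MIR5689, was called in HET-1A library 2 (fold enrichment 3.83, 16 tags) and KYSE-30 library 6 (6.35, 15 tags), with summits 10 bp apart. HET-1A library 2 also held distal peaks at chr6:10452127-10452381 (5.02) and chr6:10463838-10464082 (3.7).

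TFAP2C (ENSG00000087510, chr20:55204362-55214339, forward strand) had promoter peaks in HET-1A library 2 only, at chr20:55203445-55203858 (fold enrichment 3.21, q = 1.2e-06, 34 tags, 23.5 to 47.5) and chr20:55205146-55205377 (2.86, q = 8.15e-05, 30 tags, 20.2 to 42.8). Their fold enrichments were among the lowest of the 21 peaks although their tags were among the most numerous, and the local background was 2.96 and 2.94 times the genome background. A region 22456 bp upstream, near a start annotated as U3, was called in HET-1A library 2 (fold enrichment 4.82, 36 tags, 25.2 to 49.8) and KYSE-30 library 6 (6.88, 21 tags, 13 to 32.1) with summits 1 bp apart. KYSE-30 library 6 held a further peak in an intron (chr20:55211897-55212096, 4.17), and HET-1A library 2 held a peak at a start of LINC01716 (chr20:55154419-55154702, 2.76).

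ZNF750 (ENSG00000141579, chr17:80787310-80797898, reverse strand) and OVOL1 (ENSG00000172818, chr11:65554534-65564685, forward strand) had no promoter peak in any library. TP63 and SOX2 had none either, and the same held for 10795 protein-coding genes (53.6%). Upstream of ZNF750, HET-1A library 2 held a peak at a start of TBCD (chr17:80806082-80806457, fold enrichment 4.22) and a peak inside TBCD (chr17:80834060-80834301, 2.77). KYSE-30 library 4 held a peak inside TBCD 34.5 kb upstream (chr17:80832356-80832581, 4.28, q = 2.95e-06, 24 tags, 15.4 to 35.7), which is 1 of its 2 peaks at the 10 genes and was not called in KYSE-30 library 6. The only peak near OVOL1 lay at a start of CFL1 in HET-1A library 2 (chr11:65594412-65594975, 4.05), 29727 bp beyond the OVOL1 3′ end. These regions lie in or at other genes, and the lists do not tell which gene they serve.

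Fold enrichment at the lineage genes was set beside that of all peaks of each list, which include them. The 21 peaks of HET-1A library 2 had a median of 3.7 (2.76 to 5.76), with 8 above the list median of 4.22. The 14 peaks of KYSE-30 library 6 had a median of 5.84 (4.17 to 12), with 9 above the list median of 5.47. The highest, the region beyond TP63, lay above the 95th percentile of that list, 8.87. The Poisson intervals of the tags of the 21 HET-1A peaks all overlapped each other. Fold enrichments are not set against each other between libraries, since the smallest that could be called at genome background was 2.99 in HET-1A library 2 and 3.62 in KYSE-30 library 6.

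**Figure D4:**
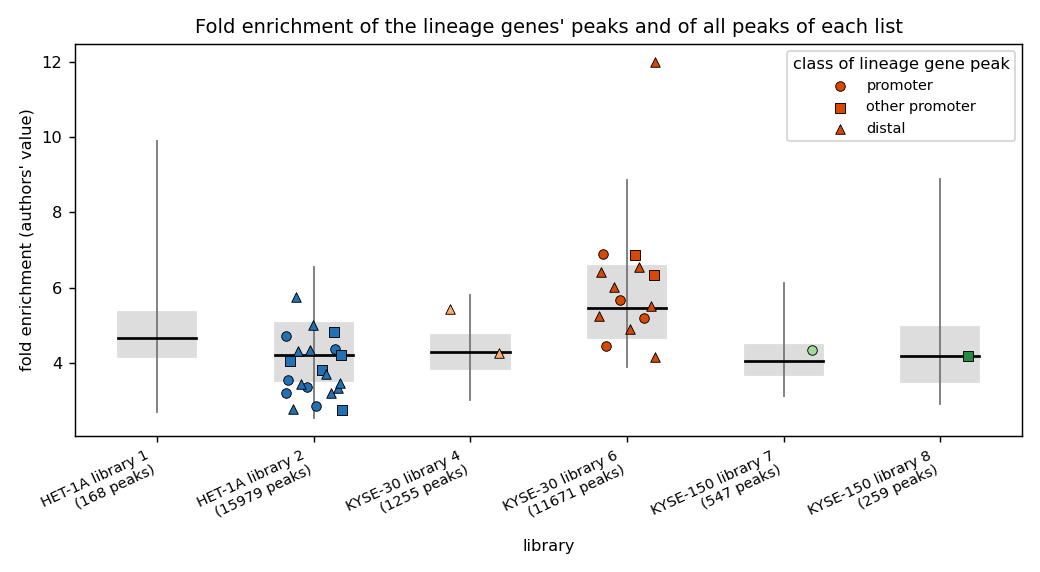
Fold enrichment (linear scale, as deposited) of the peaks at the 10 genes, by library, with circles for promoter peaks, squares for peaks at a promoter of another gene and triangles for distal peaks. Grey boxes span the quartiles of all peaks of the list, vertical lines the 5th to 95th percentiles and black bars the median. The TP63 region at 12 in KYSE-30 library 6 stands above the vertical line, and the HET-1A library 2 peaks lie between 2.76 and 5.76.

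Local background differed between gene neighbourhoods. Within 1 Mb of TP63, KYSE-30 library 6 held 34 peaks, whose local background had a median of 1.89 times the genome background (1.16 to 3.71), and HET-1A library 2 held 5, with a median of 1 (1 to 1.44). Around SOX2, KYSE-30 library 6 held 9 peaks with a median of 2.06 and HET-1A library 2 held 2 peaks at 1. Around GRHL2 the median was 1.96 in KYSE-30 library 6 (16 peaks) and 1.17 in HET-1A library 2 (12 peaks). The order was the other way at TFAP2C, with 2.08 in HET-1A library 2 (20 peaks) and 1.38 in KYSE-30 library 6 (8 peaks), and at OVOL1, with 2.31 (71 peaks) and 1.59 (9 peaks). Over the whole lists the medians were 1.45 and 1.44. The part of these differences in which regions were called was not tested.

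**Figure D5:**
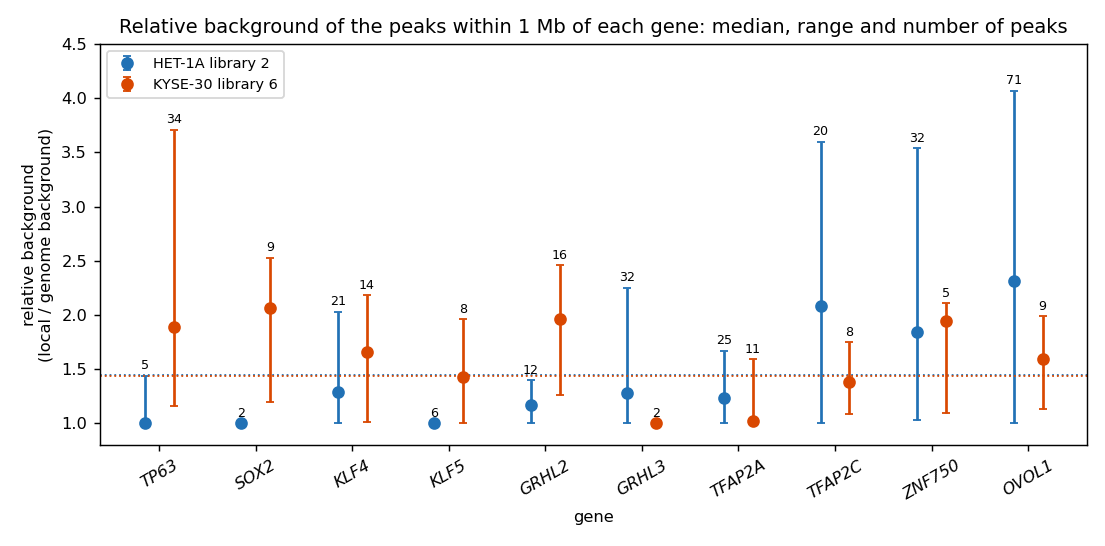
Local background of the peaks within 1 Mb of each gene, as a multiple of the genome background of the library, for HET-1A library 2 and KYSE-30 library 6. Points are medians, vertical lines run from the lowest to the highest peak, digits give the number of peaks and dotted lines the medians of the whole lists, 1.45 and 1.44. At TP63, SOX2 and GRHL2 the KYSE-30 point is the higher, and at TFAP2C and OVOL1 the HET-1A point is.

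Motifs were counted in the 200 bp around the summit of each peak. AP-1 sites (TGANTCA), bound by FOS and JUN family dimers, were present in 7 of the 14 KYSE-30 library 6 peaks at the lineage genes (50%, with 31.4% of all peaks of the list), in 6 of the 21 HET-1A library 2 peaks (28.6%, with 25.8%) and in both KYSE-30 library 4 peaks (13.3% of all its peaks). Of the 7, TP63 contributed 3. AP-2 sites were present in 4 of 14 (28.6%, with 13.4% of all peaks) and 6 of 21 (28.6%, with 15.8%). KLF sites were as frequent as in the lists, in 5 of 14 (35.7%, with 36.1%) and 8 of 21 (38.1%, with 38.2%). The grainyhead-like motif was found only in the ZNF750 peak of KYSE-30 library 4 (1.91% of all its peaks), and the SOX motif only in the region beyond TP63 in KYSE-30 library 6 (1.47%). No peak at the 10 genes held the OVOL motif, which 1.69% of HET-1A library 2 peaks and 1.61% of KYSE-30 library 6 peaks did. The p53 family motif was found in a TFAP2A peak of HET-1A library 2 (6.17% of all its peaks), the TP63 intron peak of KYSE-30 library 6 (4.45%) and the ZNF750 peak of KYSE-30 library 4 (4.22%). Shared regions count in each library, so these counts are not independent. In the 200 bp, median GC at the 10 genes was 49% in KYSE-30 library 6 (54.5% in its list) and 53.5% in HET-1A library 2 (55.5%). The shares were matched for neither GC nor peak class, and the part of either in them was not tested.

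Relatives and partners of the 10 factors were examined as a list of 14 genes. Promoter peaks were called at 4 of them in HET-1A library 2 (28.6%, with 35.4% of all protein-coding genes), at 6 in KYSE-30 library 6 (42.9%, with 28.7%) and at 0 in the other 4 libraries. GRHL1 (fold enrichment 3.29 in HET-1A and 5.7 in KYSE-30), the ETS factor ELF3 (3.66 and 3.67) and the foregut factor PAX9 (5.29 and 6.77) had promoter peaks in both libraries. GRHL1 was thus called in both lines, where GRHL2 and GRHL3 were each called in 1. The patterns of GRHL2 and GRHL3 were those of 9.66% and 16.3% of all protein-coding genes. KLF3 and KLF6 were called in KYSE-30 library 6 only (8.71 and 7.01), and the TP63 paralog TP73 in HET-1A library 2 only (3.45). Distal peaks lay at 6 of the 14 in HET-1A library 2 (42.9%, with 32.7% of all protein-coding genes), at 5 in KYSE-30 library 6 (35.7%, with 21.9%) and at 0 in the other 4 libraries.

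Among 19 genes of the squamous program on which these factors act, HET-1A library 2 had promoter peaks at 7 (36.8%, with 35.4% of all protein-coding genes). KYSE-30 library 6 had them at 4 (21.1%, with 28.7%), KYSE-30 library 4 at 1 (5.26%, with 3.88%) and KYSE-150 library 7 at 1 (5.26%, with 1.79%). The other libraries had 0. JUP, which encodes the desmosome protein plakoglobin, had the same pattern as KLF5, and its fold enrichment was 5.28 in HET-1A, 4.45 in KYSE-30 library 6 and 4.21 in KYSE-150. LAMA3, which encodes a laminin chain of the epithelial basement membrane, had a promoter peak in each KYSE-30 library (5.12 in library 4 and 7.69 in library 6) and in HET-1A library 2 (5.3). The tight junction gene CLDN4 was called in HET-1A library 2 (3.73) and KYSE-30 library 6 (4.86). The basal keratin genes KRT5 and KRT14 and the mucosal keratin genes KRT4 and KRT13 had no promoter peak in any library. This held for 53.6% of all protein-coding genes. Distal peaks lay at 15 of the 19 genes in HET-1A library 2 (78.9%, with 32.7% of all protein-coding genes), and KYSE-30 library 6 had them at 5 (26.3%, with 21.9%). KYSE-30 library 4 had them at CDH1 and CLDN4 (10.5%, with 2.47%), and KYSE-150 library 7 at JUP (5.26%, with 1.32%). No interval or density was computed for this list. Windows of neighbouring genes can overlap, so a peak can count for more than 1 gene.

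The squamous label of the lines was checked with defining markers. Promoter peaks lay at 35.4% of all protein-coding genes in HET-1A library 2 and 28.7% in KYSE-30 library 6, and distal peaks at 32.7% and 21.9%, so counts over 5 markers say little. Of KRT5, KRT14, TP63, DSG3 and PERP, only PERP had a promoter peak, in HET-1A library 2 (fold enrichment 4.41). The other 4 had none in any library, as did 53.6% of all protein-coding genes. Distal peaks lay at 4 of these 5 markers in HET-1A library 2 (KRT14, TP63, DSG3 and PERP), and TP63 was the only one in either KYSE-30 library. Of the simple epithelium markers KRT8, KRT18, EPCAM, CDX2 and HNF4A, 4 had a promoter peak in HET-1A library 2 (KRT8 5.33, KRT18 5.33, EPCAM 4.91 and HNF4A 3.9) and 2 in KYSE-30 library 6 (KRT8 4.91 and EPCAM 5.23). Distal peaks lay at 3 of them in HET-1A library 2 (KRT8, KRT18 and EPCAM), at EPCAM in KYSE-30 library 6 and at KRT8 in KYSE-30 library 4. The promoter values of KRT8 and KRT18 in HET-1A library 2 were equal, and whether 1 peak counted for both genes was not checked. Of 5 mesenchymal markers only VIM had a promoter peak, in KYSE-30 library 6 (5.37), and distal peaks lay at PDGFRA in HET-1A library 2 and at TWIST1 in KYSE-30 library 6. The 3 blood markers had neither in any library. These counts do not settle whether the lines were squamous. KYSE-150 had 0 promoter and 0 distal peaks at these markers, and its lists are too short to check the label.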

How the data were processed

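ATAC-seq peaks of 6 libraries (3 lines, 2 biological replicates each) were taken as deposited, with 1 list per library and no pooling. Per the study's methods and the submitters' processing notes, the authors trimmed reads, checked them with FastQC 0.11.5, mapped them to hg19 with Bowtie2 2.3.3.1, marked duplicates with Picard 2.2.1, removed blacklisted regions with bedtools 2.7.1, shifted reads for the Tn5 offset, used only fragments shorter than 100 bp, and ran MACS2 2.1.0.20160309 at q = 0.05 with an extension of 200 bp. HOMER is also named, with no version. Keeping short fragments favours nucleosome-free DNA and lowers the tags per peak. The deposited values are the fold enrichment (a ratio) at the summit, its −log10 p-value and −log10 q-value, a score that is 10 times the −log10 q-value, and coordinates.

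Tags at the summit and local background were recovered as the whole number of tags that gave both the deposited fold enrichment and p-value (−log10 p within 0.001, Poisson). This succeeded for 99.61 to 100% of peaks per library and was tested on simulated data. The genome background is the smallest local background of a list. Intervals are exact Poisson for tags and Wilson for shares, at 95%, and cover counting error only.

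Genes, transcripts and starts came from GENCODE 44 lifted to hg19, and all 29879 peaks lay inside the reference chromosomes. Overlap was counted from 1 bp. Promoters reached 3 kb to each side of a start and windows 50 kb beyond the gene. Regions were merged over libraries where peaks overlapped. Motifs were searched on both strands, and matches may overlap. No test between lines was made. Every one of the 10 genes is described, relatives and target genes are counted and valued where their promoter had a peak in 2 or more libraries, and a few others were named after their values were seen. The 10 genes, the lists and the motifs were chosen with earlier results of these data known, some genes of the lists are not reported here, and the scaling of peaks to the background of another library was added after the values were seen. The alternatives tried were stricter q-values (0.01 and 0.001), an equal number of peaks per library (168), promoters of 1 kb and windows of 20 or 100 kb. Protein-coding starts only, an overlap of 50%, summits only and leaving out each HET-1A or KYSE-30 library were also tried. The tools were pandas 2.3.3, numpy 2.4.6, pysam 0.24.0, scipy 1.17.1, statsmodels 0.14.6 and matplotlib 3.10.9 under Python 3.11.15.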

Additional observations from a re-analysis of the deposited data

How the results depend on the processing

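Of 94 alternative values for 15 counts, 81 stayed within 1.5 times the reported count and 13 did not. Several of the 15 counts were 0. Stricter q-values, shorter lists, narrower promoters or shorter windows cannot raise a count of 0, so many of the 81 were fixed in advance. With 168 peaks per library, the length of the shortest list, the number of genes with a promoter peak fell from 4 (HET-1A library 2), 3 (KYSE-30 library 6) and 1 (KYSE-150 library 7) to 0. The number with a distal peak became 0 in HET-1A library 2 and 1 in each KYSE-30 library, where TP63 was that gene. These lists hold fewer peaks by construction. With windows of 20 kb the number of genes with a distal peak was 3 in HET-1A library 2 (TP63, KLF4 and GRHL3) and 0 in KYSE-30 library 4, since the region beyond TP63 and the ZNF750 region lie farther out. With starts of protein-coding genes only, KYSE-150 library 8 had 1 gene with a distal peak, KLF4, in place of 0. Stricter q-values, promoters of 1 kb, windows of 100 kb and the other overlap rules left every count within 1.5 times. Single genes were still lost. With promoters of 1 kb GRHL3 left the promoter count of HET-1A library 2. At q under 0.001 the distal counts lost ZNF750 in HET-1A library 2 and TFAP2C in KYSE-30 library 6.

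The HET-1A and KYSE-30 libraries were left out in turn, and those of KYSE-150 were not. This moved the number of regions with a KYSE-30 peak and no HET-1A peak, 11, to between 2 and 15. It was 2 when KYSE-30 library 6 was left out. The number with a HET-1A peak and no KYSE-30 peak, 17, moved to between 0 and 21, with 0 when HET-1A library 2 was left out. Each of these counts thus rests on a single library. The number of regions held by every KYSE-30 library, 1, became 2 to 14 when only 1 of these libraries was counted. No paired analysis was possible because the lines share no replicate number and no test between them was made. The lists give no values for regions without a call, so a weaker signal cannot be told from none.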
